A study of Mus musculus with 3 samples.

Results

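The regulators of mitochondrial biogenesis and oxidative metabolism measured here are 9 genes: Ppargc1a, Ppargc1b, Esrra, Esrrb, Esrrg, Nrf1, Tfam, Ppara and Ppard. They were chosen by name, and every non-control probe whose RefSeq accession maps to one of them was kept, which gave 17 of the 55681 probes on the array, printed in 19 spots. RNA was taken from the muscle labelled SOL, understood here as the soleus of the hindlimb, in male C57BL/6 mice on regular chow at an age of 8 weeks. Wild-type mice (WT) were compared with mice homozygous for a LacZ allele of the lysine methyltransferase gene Mettl21c (Mettl21cLacZ/LacZ, KO), with 3 biological replicates of each genotype. The labels do not say in which cells or from which stage the allele acts, and whole muscle was measured, so that fewer cells of a type and less RNA per cell cannot be told apart.

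PGC-1 alpha and PGC-1 beta, the products of Ppargc1a and Ppargc1b, are coactivators that bind no DNA themselves. They act through nuclear receptors such as the estrogen-related receptors (Esrra, Esrrb, Esrrg) and the PPARs (Ppara, Ppard), and through the transcription factor NRF1, to raise genes of respiration and fatty acid use. One target is Tfam, whose protein packages mitochondrial DNA and starts its transcription, so that nuclear and mitochondrial genomes are expressed together. The soleus is a postural muscle rich in slow, oxidative fibres, in which this programme is active.

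Each of 3 arrays held 1 WT sample in the green dye Cy3 and 1 KO sample in the red dye Cy5. The dyes were never exchanged, so a probe's preference for a dye cannot be told apart from the genotype. All arrays lay on 1 slide. Ratios below are log2 of KO over WT after background correction and loess, a smooth curve that removes dye bias along the brightness scale, and negative values mean less signal in KO. Between 20.4% and 23.6% of spots were well above background in the WT channel and between 22.5% and 22.9% in the KO channel. The targeted transcript fell, with ratios of -2.93, -1.96 and -2.46 for Mettl21c on arrays 1 to 3 (mean -2.45, SD 0.48, limma adjusted p = 0.0289). Its KO signal was well above background on 1 array. Where the probe lies relative to the altered part of the gene was not given in the sources used here. The size of that fall varied with the handling of background, with a mean of -3.51 when none was subtracted, -3.53 with an offset of 16 and -6.23 in processed signals, and Mettl21c missed the threshold in 4 alternative settings (limma adjusted p from 0.0502 to 0.131).

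Array 3 stood apart. Levels of the 8391 probes tested correlated at 0.970 between arrays 1 and 2 in WT, at 0.899 between arrays 1 and 3 and at 0.897 between arrays 2 and 3. Of 3019 spots whose WT signal was over 200 above background on the other arrays, 250 were under 20 on array 3, against 0 of 2722 on array 1 and 1 of 2660 on array 2. These spots lay mostly in one corner of array 3, with 193 of 687 in the corner of rows over 192 and columns up to 82 and 57 of 2332 elsewhere. The tested Tfam probe sits in that corner: of the 50 spots around it that were bright on the other arrays, 32 were near background on array 3. The Esrra probe lies at the border of the corner, with 4 of 79, and the Ppard probe outside it, with 2 of 70. The map of array 3 shows where each member spot lies.

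**Figure D1:**
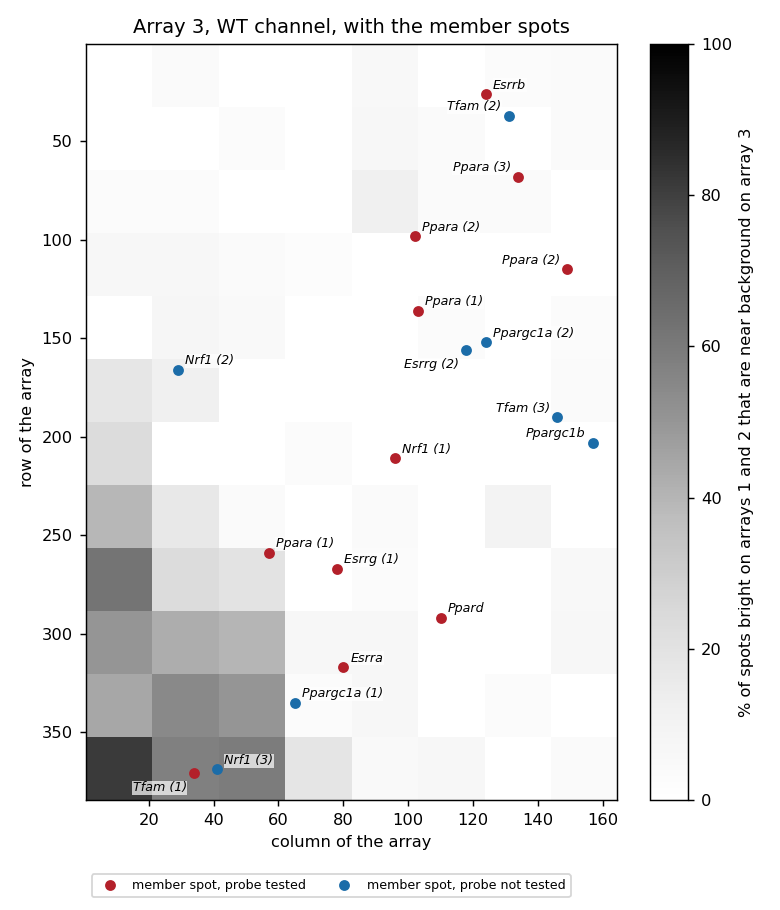
Position of the 19 member spots on array 3 by row and column of the array (red, probe tested, blue, not tested), over the percentage of spots with WT signal over 200 on arrays 1 and 2 that were under 20 on array 3, in grey. The tested Tfam probe, Tfam (1), and the Nrf1 probe (3) lie in the dark corner, and the Esrrb, Ppard and Ppargc1b spots lie in light areas.

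RefSeq promoter windows of 300 bases (250 before and 50 after a start, build GRCm38.p6) were at hand for 8 of the 9 genes, 13 windows in all. The windows were searched on both strands, since the members are described as regulating each other and the same targets. The motifs were the ERR response element TCAAGGTCA, the NRF1 core GCGCATGC, the core CCGGAAGT bound by the ETS factor GABP, and a PPAR direct repeat, meaning 2 copies of AGGTCA with any 1 base between. The ERR element contains the AGGTCA letters of the repeat. Among the members Esrra and Ppara held the NRF1 core and Tfam held the GABP core. Those matches, with the motif in capitals and each sequence written along the gene's own strand, were the following.
Esrra, chr19:6921824-6921853, minus strand, NRF1 core: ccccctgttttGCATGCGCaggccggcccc
Ppara, chr15:85735734-85735763, plus strand, NRF1 core: ggggctcggtgGCGCATGCgcgcggactag
Tfam, chr10:71238073-71238102, minus strand, GABP core: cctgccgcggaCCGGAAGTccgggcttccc
In Esrra the core reads on the opposite strand and begins 34 bases before the start. The Ppara core begins 31 bases before the start and overlaps a second match on the opposite strand, and the Tfam core begins 47 bases before it. The NRF1 core occurs in 2.71% of the 32851 windows of the table, the GABP core in 3.89%, the ERR element in 0.423% and the PPAR repeat in 0.0396%. These matches are letters in a window and not measured binding.

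The test took in probes measured on every array whose signal in either WT or KO stood well above background throughout. Of the 17 member probes 9 passed, for 7 of the 9 genes, and all 9 were well above background in both channels on every array. With array 3 left out the test took in 11201 probes, 10 of them members, against 8656 without array 1 and 8723 without array 2. In limma none of the 9 passed an adjusted p of 0.05 over all 8391 probes tested, of which 1 (0.0119%), Mettl21c itself, did. At an unadjusted p under 0.05 there were 3 of the 9 (Esrra, Ppard and 1 of 3 tested Ppara probes), against 1143 of all probes (13.6%), 470 higher and 673 lower in KO. A single sign on all 3 arrays was seen at 4 of the 9, against 35.9% of all probes, and WT and KO levels that did not overlap at 1 of the 9, Esrra, against 8.68% of all probes. The mean ratio was negative at 7 member probes and positive at 2, against 4305 and 4086 of all probes tested. The member median was -0.05 beside -0.0033 for all probes tested. By array, the median over the members was -0.13, 0.04 and -0.07 on arrays 1 to 3. The p-values and 95% intervals rest on the spread between these 3 pairs, which limma draws towards the spread over all probes tested. An interval is therefore not set by the SD printed beside it alone.

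**Figure D2:**
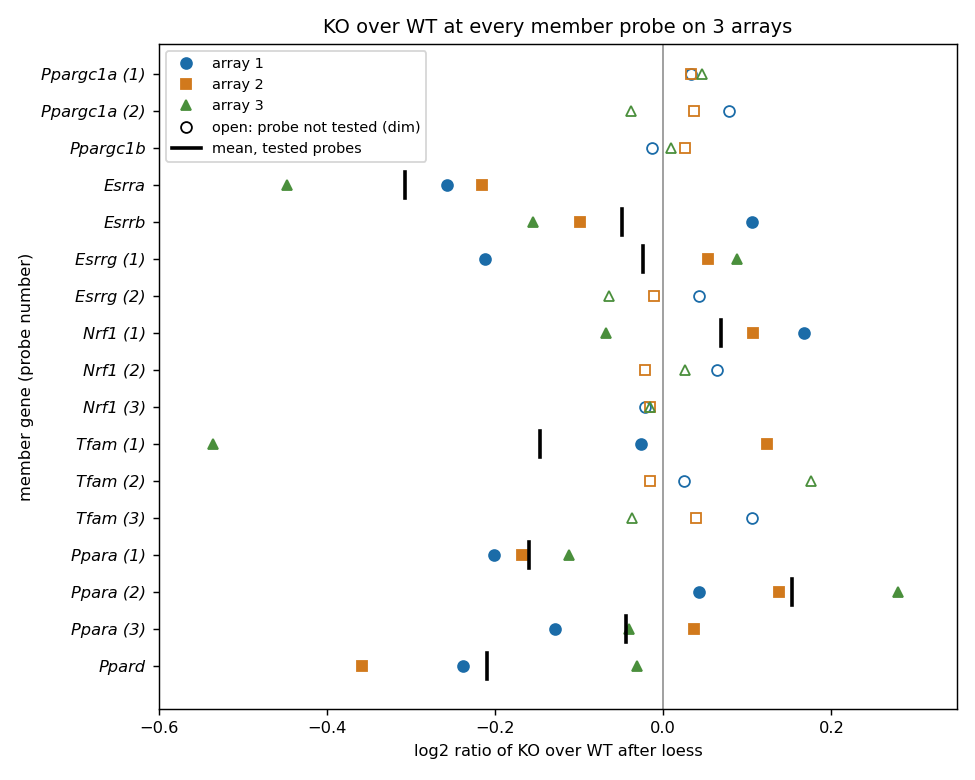
Log2 ratio of KO over WT after loess at each of the 17 member probes (rows) on arrays 1 to 3 (circle, square, triangle), with the mean of the 3 arrays as a black bar for the 9 tested probes and open symbols for the 8 that were not tested. Esrra, Ppard and Ppara (1) lie left of 0 on every array, Ppara (2) lies right of it, and Tfam (1) spans -0.53 to 0.12.

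Both PGC-1 coactivator genes were too dim to compare. The 2 Ppargc1a probes and the single Ppargc1b probe were not well above background in either channel on any array. Ratios at the first Ppargc1a probe (A_51_P279038) were 0.03, 0.03 and 0.05, at the second (A_55_P2011702) 0.08, 0.04 and -0.04, and at the Ppargc1b probe (A_55_P1993168) -0.01, 0.03 and 0.01 on arrays 1 to 3. An offset of 50 is added to each background-corrected signal, which holds ratios of such dim spots near 0, so these values bound nothing about either coactivator.

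Among the estrogen-related receptors, which bind DNA as constitutively active receptors and carry the PGC-1 signal to respiratory genes, Esrra had the lowest mean ratio of the 9 tested member probes. Its probe (A_55_P1954306, NM_007953) read 7.92, 7.84 and 8.00 log2 units in WT and 7.66, 7.63 and 7.56 in KO on arrays 1 to 3. Every KO sample lay below every WT sample, and the gap was widest on array 3. The ratios were -0.26, -0.22 and -0.45, a mean of -0.31 (SD 0.12, 95% interval -0.49 to -0.13), or 0.809 of WT (0.714 to 0.916), with an unadjusted p of 0.0054 and an adjusted p of 0.170 in limma. Of all probes tested 2.75% had a lower mean ratio. Without array 3 the mean was -0.24 (limma adjusted p = 0.240), and under all 17 alternative settings it stayed negative, from -0.95 to -0.23, passing the threshold in 2 settings that used no loess.

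Esrrb, a receptor better known from pluripotent cells and the inner ear, was measured by a single probe (A_55_P1954302). WT levels were 7.54, 7.19 and 7.08 and KO levels 7.65, 7.09 and 6.92 on arrays 1 to 3. The genotypes overlapped, and the spread between arrays was wider than the gap between channels. Its ratios of 0.11, -0.10 and -0.15 gave a mean of -0.05 (SD 0.14, 95% interval -0.23 to 0.14, limma adjusted p = 0.838), and the mean was 0.0038 without array 3.

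Esrrg, a receptor tied to oxidative muscle fibres, had 2 probes, of which A_55_P2006499 was tested. WT levels were 7.52, 7.14 and 7.38 and KO levels 7.31, 7.20 and 7.47. KO was below WT on array 1 and above it on arrays 2 and 3. The ratios of -0.21, 0.05 and 0.09 gave a mean of -0.02 (SD 0.16, 95% interval -0.22 to 0.17, limma adjusted p = 0.934), and the sign turned in 5 of 17 settings. The other probe (A_65_P19089) was well above background on none of the arrays, with ratios between -0.06 and 0.04.

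Nrf1, which binds GC-rich palindromes in promoters of respiratory genes, had 3 probes, and only A_55_P2000077 was tested. Its WT levels were 6.29, 6.18 and 6.08 and its KO levels 6.46, 6.28 and 6.01 on arrays 1 to 3, both close to background. The ratios of 0.17, 0.11 and -0.07 differed in sign, with a mean of 0.07 (SD 0.12, 95% interval -0.11 to 0.25, limma adjusted p = 0.750). Of the others, A_51_P201468 was well above background in KO on 1 array and A_52_P376269 on none, and neither was tested.

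Tfam had 3 probes, and the tested one (A_51_P493720) varied more between arrays than 95.8% of all probes tested. WT levels were 6.80, 7.20 and 6.77 and KO levels 6.77, 7.32 and 6.23 on arrays 1 to 3. The channels were close on arrays 1 and 2, and KO was low on array 3 alone. The ratios were -0.03, 0.12 and -0.53, a mean of -0.15 (SD 0.35, 95% interval -0.45 to 0.16, limma adjusted p = 0.676).

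The array 3 value of Tfam depended on how its spot was read and on how the signals were then scaled. The median signal of its pixels less local background was 77.0 in WT and 17.0 in KO, while the scanner's own background-subtracted signals were 136 and 57.4. The quotient of the second to the first, 3.37 in KO, was higher than at 99.5% of 10644 KO spots of array 3. Those were the spots well above background with a median signal over 10 after subtraction of local background. With loess the scanner's background-subtracted signals gave a Tfam mean of -0.05 over 3 arrays, still negative. Its processed signals, which are also dye-normalised, gave a ratio of 0.90 on array 3 in place of -0.53. Over 3 arrays the processed signals gave a mean of 0.37, and without array 3 the mean was 0.05, so that the sign for Tfam differed between these readings. A second probe (A_55_P2026445) was well above background in WT on 2 arrays and in KO on 1, with ratios of 0.03, -0.02 and 0.18, and the other (A_52_P351785) on none.

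Ppara, the fatty acid sensor that turns on genes of fatty acid oxidation, was measured by 3 tested probes assigned to the same RefSeq transcript, and they did not point one way. The probe A_55_P2071601, in 2 spots, read 7.03, 6.52 and 6.73 in WT and 6.83, 6.36 and 6.62 in KO. KO was lower than WT within each array, although the genotypes overlapped across arrays. Its ratios were -0.20, -0.17 and -0.11, a mean of -0.16 (SD 0.05, 95% interval -0.32 to -0.0038, limma unadjusted p = 0.0460, adjusted p = 0.358).

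The probe A_55_P2071596, also in 2 spots, was dimmer and went the other way. Its levels were 6.20, 5.94 and 6.10 in WT and 6.25, 6.08 and 6.38 in KO, and KO was higher within each array. The ratios of 0.04, 0.14 and 0.28 gave a mean of 0.15 (SD 0.12, 95% interval -0.02 to 0.33, limma adjusted p = 0.435). The third probe (A_55_P2055854) had ratios of -0.13, 0.04 and -0.04 (mean -0.04, SD 0.08, limma adjusted p = 0.836). No direction for the gene as a whole follows from probes that disagree.

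Ppard, the main PPAR of skeletal muscle and a regulator of lipid use and endurance fibre type, had 1 probe (A_66_P124715). Its levels were 8.68, 8.71 and 9.003 in WT and 8.44, 8.35 and 8.97 in KO on arrays 1 to 3. KO was below WT within each array, by little on array 3, where both samples were high, so that the genotypes overlapped. The ratios were -0.24, -0.36 and -0.03, a mean of -0.21 (SD 0.17, 95% interval -0.41 to -0.01), or 0.865 of WT (0.754 to 0.993), with an unadjusted p of 0.0422 and an adjusted p of 0.345 in limma.

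On array 3 the Ppard spot lay in a block of spots with high ratios. The local background of its KO channel was 28 there, against 17 on arrays 1 and 2 and a median of 17 over array 3. What this did to the Ppard ratio was not tested. The array was cut into 224 blocks of 24 rows by 12 columns, and the median ratio of the block around Ppard was -0.05, -0.0040 and 0.24, the last being the highest block median on array 3. After subtracting the block medians the Ppard ratios were -0.19, -0.35 and -0.27, a mean of -0.27 (SD 0.08, limma adjusted p = 0.119), and Esrra gave -0.24 (adjusted p = 0.155). Without array 3 Ppard stood at -0.30 (limma adjusted p = 0.184). In all 17 alternative settings its mean was negative, from -0.99 to -0.13.

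**Figure D3:**
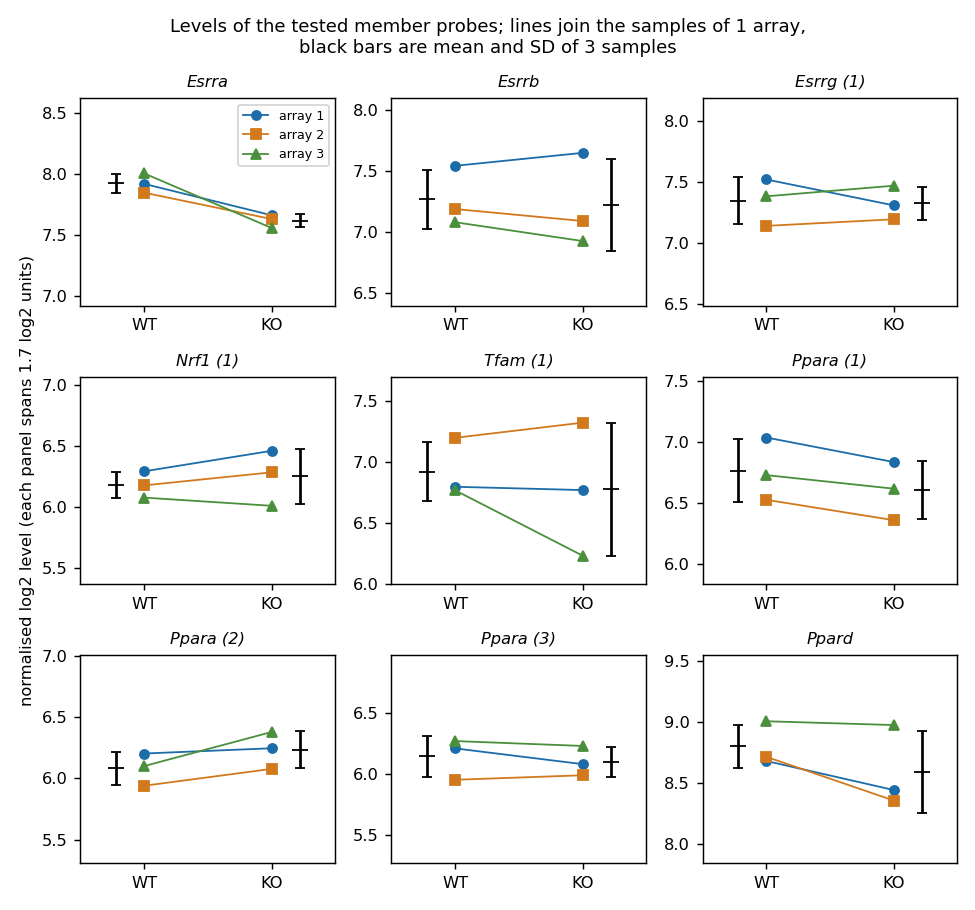
Normalised log2 levels of the 9 tested member probes in WT and KO, with lines joining the samples of 1 array and black bars for the mean and SD of 3 samples, each panel spanning the same range of log2 units. The Esrra samples separate by genotype, while Tfam (1) departs on array 3 alone and the array 3 samples of Ppard lie above the others.

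A trend with brightness remained in these ratios. With loess fitted on all spots, the median ratio of tested probes was -0.05 at an average log2 intensity of 7 to 8 and of 8 to 9, and 0.18 at 10 to 12 (368 probes) and 0.34 at 12 to 16 (36 probes). With loess fitted only on spots well above background, a setting added after seeing the data, those medians were -0.0017, -0.01, 0.0026 and 0.02, and in the scanner's processed signals the medians of the brighter ranges were 0.0031 and 0.0040. The tested member probes had average intensities from 6.14 to 8.68. The ranges of 7 to 8 and 8 to 9, with medians of -0.05, held Esrra, Esrrb, Esrrg and Ppard. The other tested member probes lay between 6 and 7, where the medians were 0.01 (6 to 6.5) and -0.02 (6.5 to 7). The member median was -0.05 with loess on all spots and -0.0552 with the curve on spots well above background. The part of this trend in the member ratios was not tested. With the curve fitted on spots well above background Esrra was at -0.24 (limma unadjusted p = 0.0138, adjusted p = 0.297), Ppard at -0.18 (0.0560 and 0.442) and the first Ppara probe at -0.14 (0.0730 and 0.481), so that 1 of the 9 member probes in place of 3 had an unadjusted p under 0.05. Esrrg turned to 0.03, and Esrrb was at -0.00015.

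**Figure D4:**
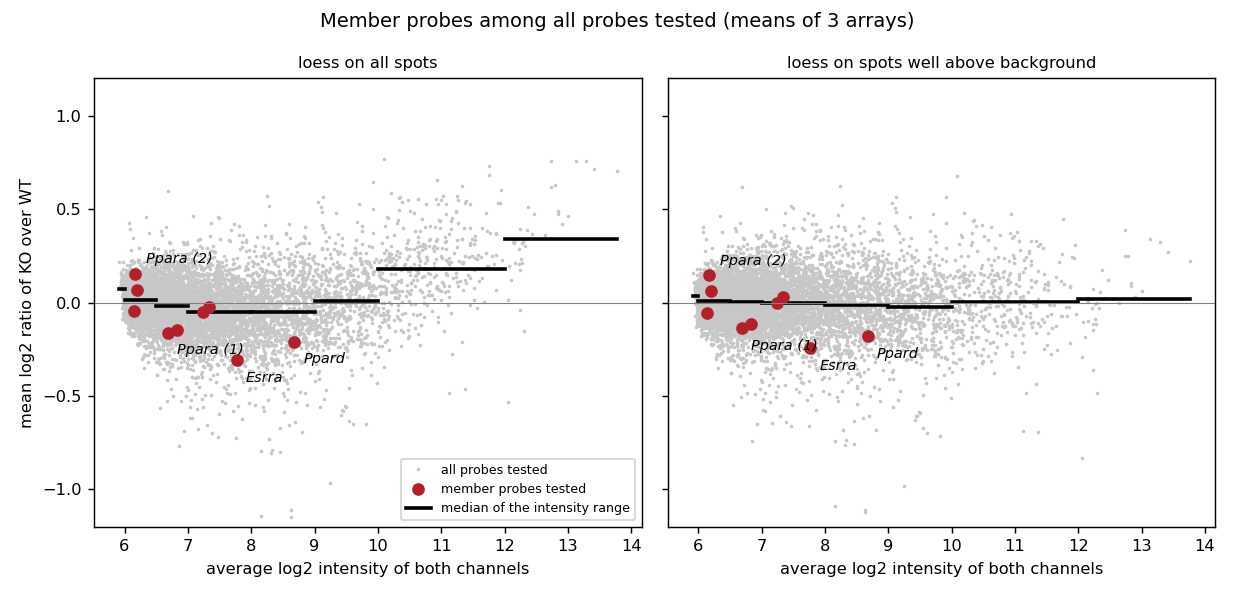
Mean log2 ratio of KO over WT of 3 arrays against average log2 intensity for the probes tested (grey) and the 9 member probes (red), with the median of each intensity range as a black line, for loess on all spots (left) and on spots well above background (right). The medians climb to 0.34 at the bright end on the left and stay within 0.04 of 0 on the right, and the members lie at lower intensities. Mettl21c is outside the plotted range.

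Genes around the members were described by 6 lists, with each gene taken at its brightest tested probe. In limma none of the listed genes passed an adjusted p of 0.05. Over all probes tested 13.6% had an unadjusted p under 0.05, the share to set beside the counts of each list. The first list held 26 kinases, deacetylases, transcription factors and other regulators linked to the PGC-1 genes or their proteins. Of these 14 were tested, 9 with a positive and 5 with a negative mean ratio (median 0.04), and 1 had an unadjusted p under 0.05. Hdac5, a class II deacetylase that holds back Ppargc1a transcription, had the smallest p at -0.27 (SD 0.28, limma adjusted p = 0.362), with -0.59 on array 3. Camk2d, a calcium-dependent kinase, stood at 0.13 and Flcn, a negative regulator of the PGC-1 pathway, at 0.10, while the dimmer tested probe of each was at -0.05 and 0.01.

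Of 24 partners and co-regulators of the PGC-1, ERR and PPAR proteins 15 were tested, 13 with a negative and 2 with a positive mean (median -0.07), and 2 had an unadjusted p under 0.05. Of all probes tested 4305 had a negative and 4086 a positive mean. The list medians were -0.02, -0.15 and -0.10 on arrays 1 to 3. On every array 6 of the 15 were negative and 0 positive, while 35.9% of all probes had a single sign on all arrays. Rxrb, a retinoid X receptor that pairs with the PPARs on DNA, had ratios of -0.30, -0.25 and -0.27 (mean -0.27, SD 0.02, limma adjusted p = 0.157). It was lower in KO on every array by about the same amount, and with loess on spots well above background it stood at -0.33 (adjusted p = 0.166). Lpin1, a coactivator of PPAR alpha and a lipid phosphatase, was at -0.20 (SD 0.03, adjusted p = 0.274) and Ncoa1, a p160 coactivator, at -0.14 (SD 0.07, adjusted p = 0.451). With the curve on spots well above background 11 of the 15 were negative and the median was -0.08.

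Of 22 genes for upkeep and transcription of mitochondrial DNA 9 were tested, 5 positive and 4 negative (median 0.03), and 2 had an unadjusted p under 0.05. Ssbp1, the single-stranded DNA-binding protein of mitochondria, had ratios of 0.16, 0.38 and 0.35 (mean 0.30, SD 0.12, limma adjusted p = 0.175), positive on every array. Dguok, which supplies purine nucleotides in mitochondria, was at 0.19 (SD 0.10, adjusted p = 0.318) and Tfb2m, a partner of TFAM at mitochondrial promoters, at 0.09 (SD 0.17, adjusted p = 0.679). None of the 3 depended on the choice of curve for its sign, with 0.35, 0.21 and 0.12 when loess was fitted on spots well above background.

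For the 34 oxidative targets of ERR, NRF1 and PGC-1 the sign of the median depended on the normalisation. With loess on all spots 25 were tested, 15 positive and 10 negative (median 0.09), 5 of the positive ones at an unadjusted p under 0.05, and with loess on spots well above background 9 were positive and 16 negative (median -0.02). With no loess the list median was -0.44 after centring on the tested probes, when the median of all probes was -0.0020, and -0.88 after centring on the array median, when it was -0.44. In the scanner's processed signals, where no loess was applied either, the list median was 0.03. Cox7a1, a muscle subunit of cytochrome c oxidase, had the smallest p, with ratios of 0.35, 0.90 and 0.91 (mean 0.72, SD 0.32, limma adjusted p = 0.0940) at an average intensity of 13.4. With the other curve it was at 0.27 (adjusted p = 0.399). Cox4i1, another subunit, went from 0.32 (adjusted p = 0.124) to -0.0016 (adjusted p = 0.997), and Cox5b from 0.44 (adjusted p = 0.187) to 0.24 (adjusted p = 0.398). Of the 9 untested genes of this list 8 were well above background on 2 arrays and dim or flagged on the other. With array 3 left out 33 genes of the list were tested (median 0.11), against 25 with array 1 or array 2 left out.

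Of 32 PPAR targets in lipid use 24 were tested, 13 positive and 11 negative (median 0.04, and 0.01 with the curve on spots well above background), and at an unadjusted p under 0.05 there were 2 positive and 2 negative. Decr1, an enzyme for unsaturated fatty acids, was at 0.30 (SD 0.14, limma adjusted p = 0.183) and moved to 0.12 with that curve, and its dimmer tested probe was at 0.04. Ech1, which also acts on unsaturated fatty acids, was at -0.28 (SD 0.15, adjusted p = 0.226) and -0.25. Cpt1b, the muscle enzyme that admits fatty acids to mitochondria, was at 0.30 (SD 0.21, adjusted p = 0.257) and 0.22, and its dimmer tested probe was at 0.12. Of 10 antioxidant genes 9 were tested, 6 positive and 3 negative (median 0.12, and 0.06 with that curve), 2 of them at an unadjusted p under 0.05, led by Gpx4, a lipid peroxidase, at 0.23 (adjusted p = 0.337), Cat, catalase, at 0.17 (adjusted p = 0.354) and Prdx3, the mitochondrial peroxiredoxin, at 0.15 (adjusted p = 0.418). With loess on spots well above background Gpx4 was at 0.06 (adjusted p = 0.827), Cat at 0.19 and Prdx3 at 0.19. Centring on the tested probes with no loess gave medians of -0.255 for the PPAR targets and -0.16 for the antioxidant genes, so that both lists turned sign there. In the processed signals, also with no loess, the medians were 0.03 and 0.0031.

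**Figure D5:**
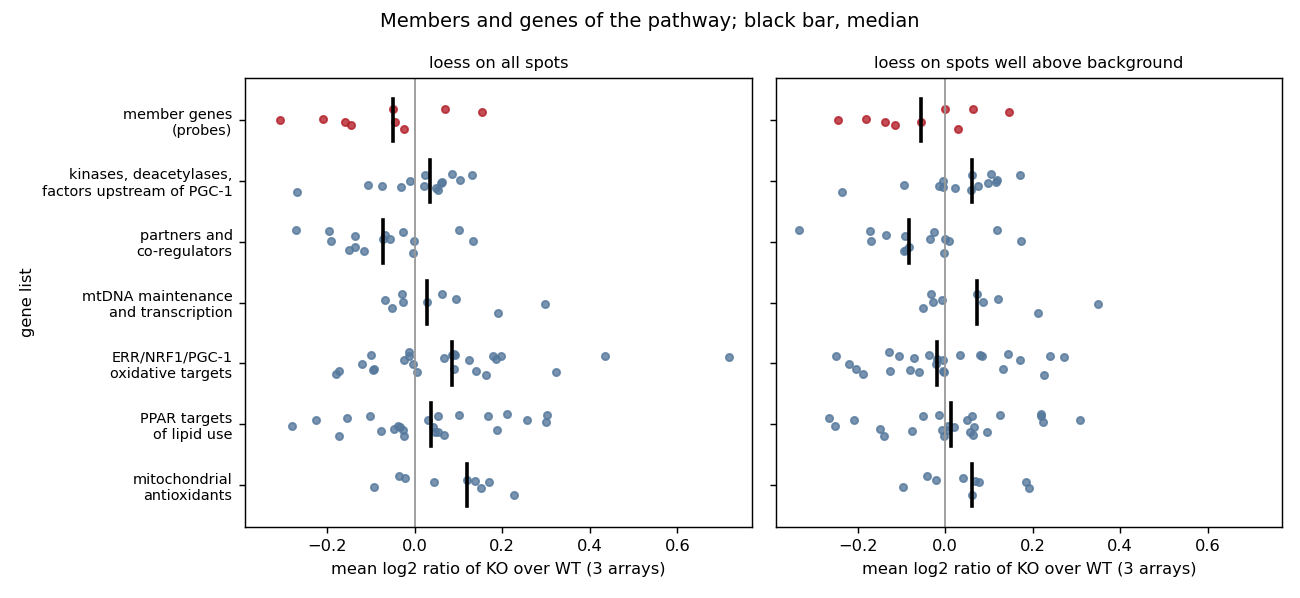
Mean log2 ratio of KO over WT on 3 arrays for the tested member probes (red) and for the tested genes of 6 pathway lists (blue), with the median as a black bar, for loess on all spots (left) and on spots well above background (right). The median of the oxidative targets moves from 0.09 on the left to -0.02 on the right, while the medians of the members and of the partners stay below 0 in both.

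Genes whose promoter windows hold these motifs were set beside all 4649 tested genes with a window, of which 2155 were positive and 2494 negative (median ratio -0.01). Of 273 tested genes with the NRF1 core 121 were positive and 152 negative (median -0.02), and of 452 with the GABP core 185 were positive and 267 negative (median -0.02). The ERR element was in windows of 15 tested genes, 4 positive and 11 negative (median -0.06), and the PPAR repeat in windows of 2. In limma none of these genes was called. With no adjustment in limma, 15 positive and 20 negative genes with the NRF1 core had p under 0.05 (12.8% of its 273). The negative ones included both members with that core, Esrra and, at its brightest tested probe, Ppara. With the GABP core there were 17 positive and 45 negative genes (13.7% of its 452). Over all 4649 genes the share was 13.5%, 262 positive and 366 negative, so both shares lay near the background.

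Markers of fibre types and of other cells were read on the same arrays, and their part in the ratios of the members was not tested. The list of slow and oxidative fibre markers includes Acta1 and Ckm, which are not particular to slow fibres, and Myh2, the myosin of type IIA fibres. The list had a median of 0.15 over 10 of 13 genes, 8 positive and 2 negative (summed level 19260 to 24450 in WT and 22850 to 29100 in KO). With loess on spots well above background its median was 0.07, 6 positive and 4 negative. In this list Atp2a2, which encodes the SERCA2 calcium pump and was named after its values were seen, had ratios of -0.74, -1.13 and -1.56 (mean -1.14, SD 0.41, limma adjusted p = 0.0824), while its dimmer tested probe was at 0.09. Fast fibre markers had a median of -0.19 over 8 of 11 genes (11320 to 16540 in WT and 9218 to 16040 in KO), and -0.36 with that curve. The 6 tested of 9 macrophage and leukocyte markers were all negative in the mean of 3 arrays (median -0.24, summed level 747.6 to 1784 in WT and 734.0 to 1392 in KO), with medians of -0.31, -0.27 and 0.09 on arrays 1 to 3. A single sign on all arrays was seen at 2 of the 6, against 35.9% of all probes. Red blood cell markers had a median of 0.21 over 3 of 6 genes (833.7 to 1300 in WT and 1017 to 2391 in KO), adipocyte markers 0.09 over 6 of 9, endothelial markers 0.03 over 5 of 8 and fibroblast markers 0.01 over 3 of 6. The adipocyte genes Ucp1, Lep and Cidec were not well above background on any array. The 3 untested genes of the slow and oxidative list, Myh7, Tnni1 and Ckm, were well above background on 2 arrays and dim or flagged on the other. The same held in WT for the 3 untested fast fibre markers, Myh4, Tnni2 and Casq1.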

How the data were processed

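Trizol was used to extract total RNA from 3 WT and 3 KO samples, and an Agilent kit for low input made the dyed cRNA, per the labels' protocols. The deposited scanner files hold green and red intensity per spot with the background around it, flags for outliers, and a processed signal that the software had background-subtracted and dye-normalised, per the file headers. The headers name Feature Extraction 12.0.3.1, and the submitters' processing notes name 11.5. The deposited series matrix holds 1 log10 ratio of KO over WT per spot, equal to the ratio in the scanner files within 5e-10 on arrays 1 and 2 and within 0.0050 on array 3, with column medians of 0, 0 and 0. It served as a check of scale and direction.

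Median spot intensities were background-corrected with normexp and an offset of 50, and a loess curve was fitted on each array, giving controls and outlier-flagged spots no weight, in limma 3.58.1 (R 4.3.3, with the data.table package, version 1.17.8). Flagged spots (536, 572 and 1002 on arrays 1 to 3) were dropped and spots of a probe averaged. The mean ratio was tested against 0 with lmFit and eBayes, two-sided, with Benjamini-Hochberg adjustment over 8391 probes and a threshold of 0.05. Levels per channel followed Aquantile scaling between arrays. Accessions were matched without version to RefSeq symbols of GRCm38.p6, and 28664 of 29472 RefSeq probes matched. The number of arrays limits the precision. The array pairs 1 WT with 1 KO sample, so the ratio already is the paired value.

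The members, gene lists and alternatives were chosen with earlier results of these data known. The text names all 9 members with every probe, Mettl21c, and the 3 tested genes of smallest unadjusted p in each pathway list. Some of the untested marker genes outside that rule were also named, and Atp2a2 was named after its values were seen. Added after seeing the data were centring within blocks of the array, the scanner's background-subtracted signals, loess on spots well above background and the count of spots near background on 1 array. The fit with either loess curve was run on simulated data of known ratios, and a pass was required only for the curve on spots well above background. The simulated dye difference was a constant factor, and no corner like that of array 3 was simulated.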

Additional observations from a re-analysis of the deposited data

How the results depend on the processing

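In all but 2 of the 17 alternative settings 0 member probes passed the threshold. Without loess, centring each array on its median moved the median of all tested probes to -0.44 and called 5480 probes, 6 of them members (member median -0.58), and centring on the tested probes called 3040, 4 of them members (median -0.14), with Esrra (-0.51) and Ppard (-0.55) lower and Nrf1 (0.29, limma adjusted p = 0.0438) and the second Ppara probe (0.41, adjusted p = 0.0172) higher. Under centring on the array median Nrf1, at -0.15, and the second Ppara probe, at -0.0249, were above that shift. The third Ppara probe was at 0.23 with centring on the tested probes. Taking 1 probe per gene gave a member median of -0.15. Probes called numbered 3 with no background subtraction, 21 with an offset of 16, 80 with robust, trended eBayes, 38 with array weights, 3 with 1 probe per gene, 61 with centring within blocks and 0 to 10 without 1 array. Limma called 0 with the processed signals (937 at an unadjusted p under 0.05), 0 with no filter on dim probes (3494), 0 with both channels required above background (1051) and 0 with the scanner's background-subtracted signals (1195). Mettl21c was at -6.23 with processed signals (adjusted p = 0.0767), -2.45 with no filter (0.131), -2.47 with background-subtracted signals (0.0502) and from -2.69 to -2.21 without 1 array (0.0871 without array 3). It was not tested where both channels had to be above background. Signs turned for Tfam, at 0.37 with processed signals and from -0.281 to 0.0484 without 1 array, for Esrrb, from -0.127 to 0.0038 without 1 array, and for Esrrg, at 0.0055 with no background subtraction, 0.085 with processed signals, 0.0098 with block centring, 0.03 with loess on spots well above background and from -0.0792 to 0.0705 without 1 array. The cause of these shifts was not tested. Signal close to background limits both PGC-1 genes, and the offset of 50 limits the ratios of Nrf1 and of the Ppara probes. With an offset of 16, no background subtraction and processed signals the first Ppara probe was at -0.24, -0.26 and -0.44 (limma unadjusted p = 0.0495, 0.0401 and 0.0463). The second was at 0.29, 0.23 and 0.66 (limma unadjusted p = 0.0321, 0.0812 and 0.0290), and the third at -0.08, -0.07 and -0.21.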
